A study of Saccharomyces cerevisiae with 6 samples.

Results

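Antioxidant genes of baker's yeast, Saccharomyces cerevisiae, were followed across precipitates of the mRNA export receptor Mex67, of the mRNA-binding protein Npl3 and of cells without a tagged protein. By locus, 9 genes were taken: the catalase genes CTT1 (YGR088W) and CTA1 (YDR256C), the superoxide dismutase genes SOD1 (YJR104C) and SOD2 (YHR008C), the peroxiredoxin genes TSA1 (YML028W), TSA2 (YDR453C), PRX1 (YBL064C) and AHP1 (YLR109W), and the thioredoxin gene TRX2 (YGR209C). They are 9 of the 5667 yeast loci measured, and each is measured by 1 probe set of its own. The study asked which mRNAs are bound by Mex67 and Npl3 in growing and in heat-stressed cells. The Mex67 precipitates come from strain HKY1266, the Npl3 precipitates from strain HKY157, and the no tag controls from an entry that names the strains HKY36 and HKY381, with no statement on whether they were pooled. All cultures grew at 25 °C in rich medium to log phase, were divided, were held for 30 min at 42 °C or at 25 °C, were crosslinked with UV light, and were lysed for precipitation on GFP-Trap beads together with beads that carried an antibody against c-myc. The labels used here do not say which protein carries which tag, and the temperatures rest on reading S and US in the column names as stressed and unstressed.

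Superoxide and hydrogen peroxide arise as by-products of respiration and of oxidase enzymes. Superoxide dismutases turn superoxide into hydrogen peroxide, which catalases split into water and oxygen and which peroxiredoxins reduce with electrons passed on by thioredoxins. In yeast several of these genes belong to the general stress response under the transcription factors Msn2 and Msn4 or to the oxidative stress response under Yap1 and Skn7, and some of them are known to be induced by heat.

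Each of the 6 groups is 1 array, so no difference has a replicate check and no p-value was computed. Values are log2 values that the authors had normalized, so each difference is one relative to the remaining mRNAs of that array. A gene was counted as different at 2-fold, a log2 difference of 1. Probe sets for the fission yeast Schizosaccharomyces pombe, used as background, had differences with an SD of 0.222 to 0.261 between compared pairs of arrays. They are dim, so this SD does not measure the spread between independent precipitations. All 9 genes lay above the background floor of 4.997 to 5.12 on every array. No array of unprecipitated RNA was analysed here, so more of an mRNA in the cells and more of it bound cannot be told apart. Strain differences move with the precipitate. At 42 °C and 25 °C, the mating gene STE2 was at 11.90 and 13.84 on the Mex67 arrays. It was at 13.06 and 13.85 on the Npl3 arrays, against 9.12 and 8.48 on the no tag arrays. The mating gene STE3 went the other way, at 7.90 and 6.53 on the Mex67 arrays and 8.54 and 8.06 on the Npl3 arrays. On the no tag arrays STE3 was at 12.59 and 13.41. URA3 was unlike between Mex67 and Npl3, at 8.88 and 9.84 against 14.58 and 14.55. Of 13 genes that mark strains, 11 differed at least 2-fold from the control in Mex67 at 25 °C and 10 at 42 °C, and 9 and 10 did in Npl3. The shares of all loci were 1.40% and 12.8% in Mex67 and 33.2% and 38.1% in Npl3. Between Mex67 and Npl3, 7 of the 13 differed at 25 °C and 6 at 42 °C, all lower in Mex67. There 27.3% and 42.7% of all loci differed. The part of strain in the results below was not tested. Signs of labelling and RNA quality also differed. Labelling spikes had medians of 4.63 on the Mex67 array at 42 °C and 5.17 and 5.06 on the Npl3 arrays, against 6.51 on the Mex67 array at 25 °C and 6.63 and 6.80 on the no tag arrays. For actin mRNA the excess of the 3′ over the 5′ probe set was 0.80 on the Mex67 array at 42 °C. On the Npl3 arrays it was 1.10 at 42 °C and 1.35 at 25 °C. On the Mex67 array at 25 °C and the no tag arrays it was 0.53 to 0.56. The heated Mex67 array and the Npl3 arrays are set against the other arrays below as a labelling split. In the actin measure the heated Mex67 array lay between the 2 sides. This split is crossed by the heat comparison of Mex67, by Mex67 against no tag at 42 °C and by Npl3 against no tag at both temperatures. Mex67 against Npl3 at 25 °C and the heat difference of Mex67 beyond that of the control also cross it. Mex67 against Npl3 at 42 °C does not cross it, but its 2 arrays still differed in both measures. The part of labelling and RNA quality in these comparisons was not tested.

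The 9 genes ranged from near constant to widely different between arrays. TSA2 spanned 3.18 on the log2 scale between its lowest and highest array, CTA1 2.57 and CTT1 2.18. SOD2 spanned 1.14, PRX1 1.06, AHP1 0.91, SOD1 0.85, TSA1 0.57 and TRX2 0.34. In all, 5 of the 9 spanned at least 2-fold, while 72.9% of all loci did, and the median span was 1.06 for the 9 genes and 1.41 for all loci.

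**Figure D1:**
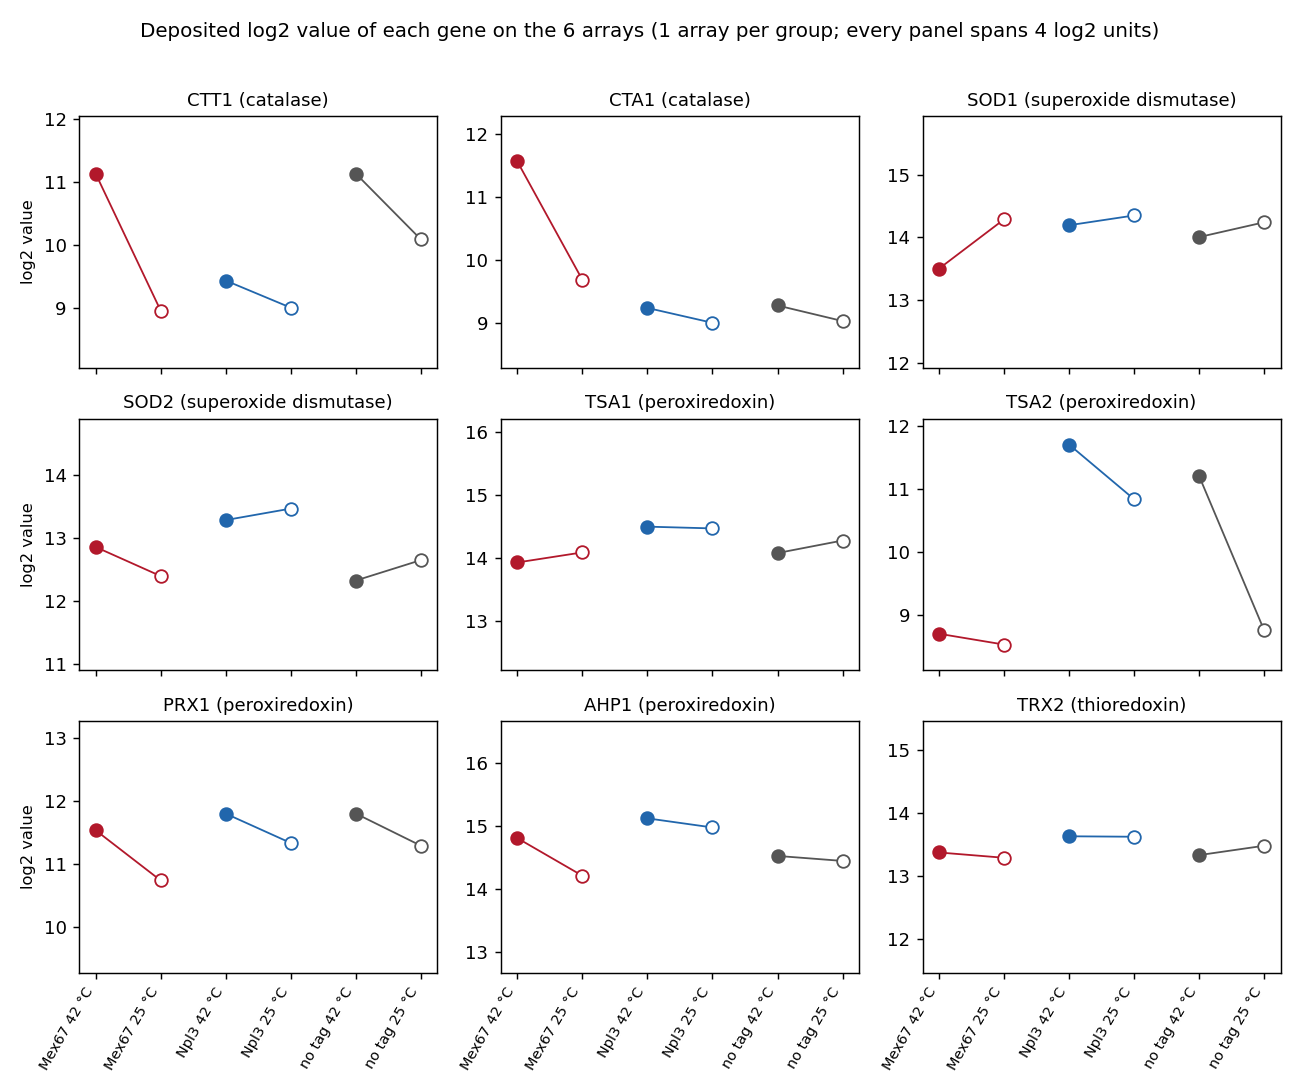
Deposited log2 value (vertical axis) of each of the 9 genes on the 6 arrays (horizontal axis), with filled points for 42 °C and open points for 25 °C, and 1 array per group. TSA2 lay between 8.53 and 8.75 on the Mex67 arrays and the no tag array at 25 °C and above 10.8 on the other 3, while TRX2 stayed within 0.34 of itself on all 6.

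CTT1 encodes catalase T, the cytosolic catalase, a classical target of the general stress response. On the Mex67 arrays CTT1 was at 11.13 at 42 °C, against 8.95 at 25 °C. On the Npl3 arrays CTT1 was at 9.43 at 42 °C, against 8.999 at 25 °C. On the no tag arrays CTT1 was at 11.13 at 42 °C, against 10.08 at 25 °C. The heated Mex67 array and the heated control thus held the same high value, and the remaining 4 arrays lay lower, with the unheated control above the other 3. With heat CTT1 was 4.53-fold higher in the Mex67 precipitate and 2.07-fold higher in the control, while in the Npl3 precipitate the difference was 0.43 on the log2 scale, short of 2-fold.

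Against the control, CTT1 was lower in Mex67 at 25 °C by 2.19-fold, a log2 difference of -1.13. This was rank 22 from the lowest of 5632 loci in a comparison where 0.657% of all loci were at least 2-fold lower. This comparison does not cross the split in labelling but is between strains. Of the 13 genes that mark strains, 5 were at least 2-fold higher and 6 lower in it. At 42 °C the log2 difference of CTT1 between Mex67 and the control was 0.00. The heat difference of CTT1 in Mex67 exceeded that in the control by 1.13, and that excess is the same quantity as the deficit at 25 °C, since the heated values were equal. In Npl3, CTT1 was lower than in the control at both temperatures, by 2.12-fold at 25 °C and by 3.25-fold at 42 °C.

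CTA1 encodes catalase A, which works in peroxisomes beside the oxidase of fatty acid breakdown. CTA1 was at 11.56 on the Mex67 array at 42 °C, against 9.68 on the Mex67 array at 25 °C. On the Npl3 arrays CTA1 was at 9.23 at 42 °C, against 8.997 at 25 °C. On the no tag arrays CTA1 was at 9.27 at 42 °C, against 9.02 at 25 °C. A single array, the heated Mex67 precipitate, stood apart, and the Npl3 and no tag arrays all lay within 0.28 of each other. With heat CTA1 was 3.69-fold higher in Mex67, while the log2 heat differences in Npl3 and no tag were 0.24 and 0.25.

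In the heated Mex67 precipitate CTA1 was 4.90-fold higher than in the heated control, rank 7 from the highest of 5650 loci. It was 5.04-fold higher there than in the heated Npl3 precipitate, with rank 102 of 5649 loci. That comparison does not cross the split in labelling but is between strains. Its arrays also differed in the actin measure, at 0.80 in Mex67 and 1.10 in Npl3. At 25 °C CTA1 was also the gene of the 9 that lay farthest above the control in Mex67, with a log2 difference of 0.66, short of 2-fold. The heat difference of CTA1 in Mex67 exceeded that in the control by 1.64, rank 46 of 5651 loci, in a comparison that crosses the split. All of these comparisons except that at 25 °C use the heated Mex67 array, so they are not separate observations.

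Among the superoxide dismutases, SOD1 encodes the cytosolic copper and zinc enzyme. SOD1 was at 13.50 at 42 °C and 14.29 at 25 °C in the Mex67 precipitates, at 14.19 and 14.35 in the Npl3 precipitates and at 14.01 and 14.24 in the controls. The heated array was the lower one in each of the 3 pairs, with log2 heat differences of -0.78 in Mex67, -0.16 in Npl3 and -0.24 in no tag, and no comparison of SOD1 reached 2-fold. Once the trend with coding length, described below, was removed, the differences were -0.28 in Mex67, -0.07 in Npl3 and 0.01 in no tag, so that the direction in no tag did not hold.

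SOD2 encodes the manganese enzyme of the mitochondrial matrix. SOD2 was at 12.86 at 42 °C and 12.40 at 25 °C in the Mex67 precipitates, at 13.29 and 13.47 in the Npl3 precipitates and at 12.33 and 12.65 in the controls. Both Npl3 arrays lay above the other 4. The log2 difference of Npl3 from the control was 0.82 at 25 °C and 0.96 at 42 °C, and SOD2 was 2.11-fold lower in Mex67 than in Npl3 at 25 °C. That last difference was -1.07, and -0.72 after removal of the length trend.

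TSA1 and TSA2 encode a paralogous pair of cytosolic peroxiredoxins of the 2-Cys type. TSA1 is the major, constitutively abundant form, which also acts as a chaperone, and TSA2 is the stress-inducible form. Both have a coding length of 591 bp. The sequences of the probes were not used here, so signal shared between the pair was not checked. TSA1 was at 13.93 at 42 °C and 14.09 at 25 °C in the Mex67 precipitates, at 14.50 and 14.47 in the Npl3 precipitates and at 14.08 and 14.28 in the controls. The largest TSA1 difference among the 9 comparisons of a pair of arrays was that of Mex67 with Npl3 at 42 °C, with -0.57.

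TSA2 had the widest range of the 9 genes and a different order of arrays. In the Mex67 precipitates TSA2 was at 8.70 at 42 °C, against 8.53 at 25 °C. In the Npl3 precipitates TSA2 was at 11.71 at 42 °C, against 10.84 at 25 °C. In the no tag controls TSA2 was at 11.21 at 42 °C, against 8.75 at 25 °C. The heated Mex67 array thus stayed with both unheated arrays of Mex67 and no tag, and the Npl3 array was high without heat. With heat TSA2 was 5.48-fold higher in the control, rank 40 of 5647 loci, while the log2 heat differences were 0.87 in Npl3 and 0.17 in Mex67, the second of which was -0.18 after quantile normalization and 0.63 without the length trend.

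In the heated Mex67 precipitate TSA2 was 5.68-fold lower than in the heated control, rank 17 from the lowest of 5650 loci. It was 8.06-fold lower there than in the heated Npl3 precipitate, in a comparison between strains that does not cross the labelling split. The actin measure still differed between these arrays, at 0.80 in Mex67 and 1.10 in Npl3. That comparison has the strongest trend with coding length of the 11. The log2 difference of -3.01 was -2.11 without that trend. At 25 °C TSA2 in Mex67 differed from the control by -0.22 on the log2 scale, and in Npl3 it was 4.25-fold higher than in the control. The heat difference of TSA2 fell short of that in the control by 2.28 on the log2 scale in Mex67 (a difference of -2.28, rank 22 from the lowest of 5651 loci, across the labelling split) and by 1.58 in Npl3 (-1.58, rank 79 of 5649 loci). These values share the heated control array. TSA2 and CTA1 therefore lay at opposite ends of the comparison of Mex67 with the control at 42 °C, and CTT1, the other catalase gene, lay at 0.00 between them.

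PRX1 encodes the mitochondrial peroxiredoxin, which is of the 1-Cys type. PRX1 was at 11.54 at 42 °C and 10.74 at 25 °C in the Mex67 precipitates, at 11.80 and 11.34 in the Npl3 precipitates and at 11.80 and 11.29 in the controls. The heated array was the higher one in each of the 3 pairs, with log2 heat differences of 0.80 in Mex67, 0.47 in Npl3 and 0.51 in no tag, none of which reached 2-fold. Npl3 and control values of PRX1 differed by 0.04 at 25 °C and by 0.00 at 42 °C. Without the length trend, Npl3 minus control was -0.24 and -0.39 for PRX1.

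AHP1 encodes a peroxiredoxin that acts on alkyl hydroperoxides. AHP1 was at 14.81 at 42 °C and 14.21 at 25 °C in the Mex67 precipitates, at 15.12 and 14.98 in the Npl3 precipitates and at 14.53 and 14.45 in the controls. The heated array was again the higher one in each pair, by 0.60 in Mex67, 0.15 in Npl3 and 0.08 in no tag. The highest value of any yeast locus on these arrays was 15.36 to 15.43, which leaves little room above the AHP1 values.

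TRX2 encodes a cytosolic thioredoxin, an electron donor of cytosolic peroxiredoxins. TRX2 was at 13.37 at 42 °C and 13.28 at 25 °C in the Mex67 precipitates, at 13.63 and 13.62 in the Npl3 precipitates and at 13.33 and 13.48 in the controls. Its log2 heat differences were 0.08, 0.01 and -0.15 in Mex67, Npl3 and no tag. TRX1, the gene of its paralogue, was at 10.05 at 42 °C and 12.50 at 25 °C in the Mex67 precipitates, at 11.77 and 13.14 in the Npl3 precipitates and at 11.32 and 12.73 in the controls. The heated TRX1 value was thus the lower one in all 3 pairs, by a log2 difference of -2.46 in Mex67, -1.37 in Npl3 and -1.41 in no tag, and the heat differences of TRX2 lay above those of TRX1 by 2.54, 1.38 and 1.26. The coding lengths of the pair are 315 bp for TRX2 and 312 bp for TRX1.

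**Figure D2:**
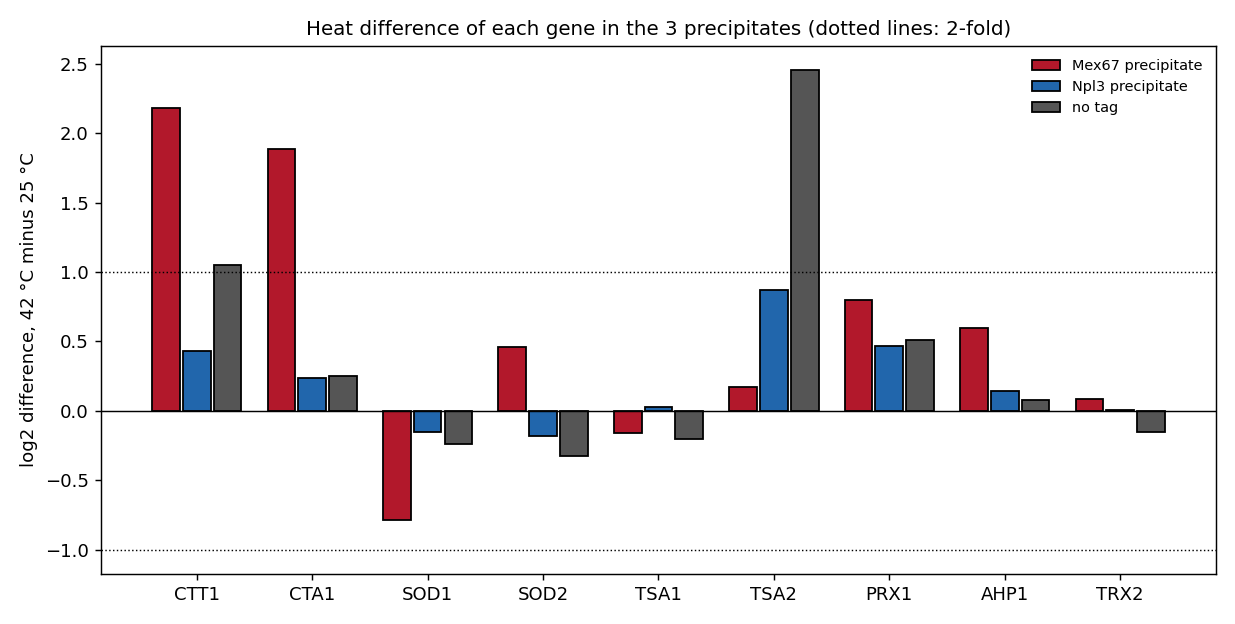
Log2 difference of 42 °C minus 25 °C (vertical axis) of each of the 9 genes (horizontal axis) in the Mex67, Npl3 and no tag precipitates, 1 pair of arrays each, with dotted lines at 2-fold. CTT1 passed 2-fold in Mex67 and in no tag, CTA1 in Mex67, TSA2 in no tag, and no gene in Npl3.

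Counted over the 9 genes, heat in the Mex67 precipitate left 2 genes at least 2-fold higher (CTT1 and CTA1) and 0 lower. Of all loci 15.4% were higher and 12.2% lower (869 and 689 loci, or 792 and 785 after quantile normalization). In the Npl3 precipitate 0 of 9 differed, where 2.11% of all loci were higher and 1.38% lower. In the control 2 were higher (CTT1 and TSA2) and 0 lower, where 6.69% and 2.07% of all loci were (378 and 117 loci, or 281 and 159 after quantile normalization). Median log2 heat differences of the 9 were 0.46 in Mex67, 0.15 in Npl3 and 0.08 in no tag, and the medians of all loci were 0.03, 0.01 and 0.00. The genes that made up the counts in Mex67 and in no tag had CTT1 in common, and the other gene differed. In the Mex67 precipitate the count of 2 is close to the share of all loci.

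Beyond the control's heat difference, that of Mex67 put CTT1 and CTA1 at least 2-fold higher and TSA2 lower, where 5.06% of all loci were higher and 5.40% lower. That of Npl3 put TSA2 lower, where 4.30% of all loci were, and 0 of 9 higher, where 1.13% were (243 and 64 loci, or 189 and 101 after quantile normalization). Both comparisons use the same control arrays.

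Set against the control, the Mex67 precipitate at 25 °C had 1 of 9 genes lower (CTT1, with 0.657% of all loci) and 0 higher (0.746%). At 42 °C it had CTA1 higher, where 6.97% of all loci were, and TSA2 lower, where 5.79% were. In the Npl3 precipitate at 25 °C TSA2 was higher and CTT1 lower, where 18.1% of all loci were higher and 15.1% lower. At 42 °C CTT1 was lower, where 19.4% were, and 0 of 9 were higher, where 18.7% were. The Npl3 counts are at or below the shares of all loci.

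**Figure D3:**
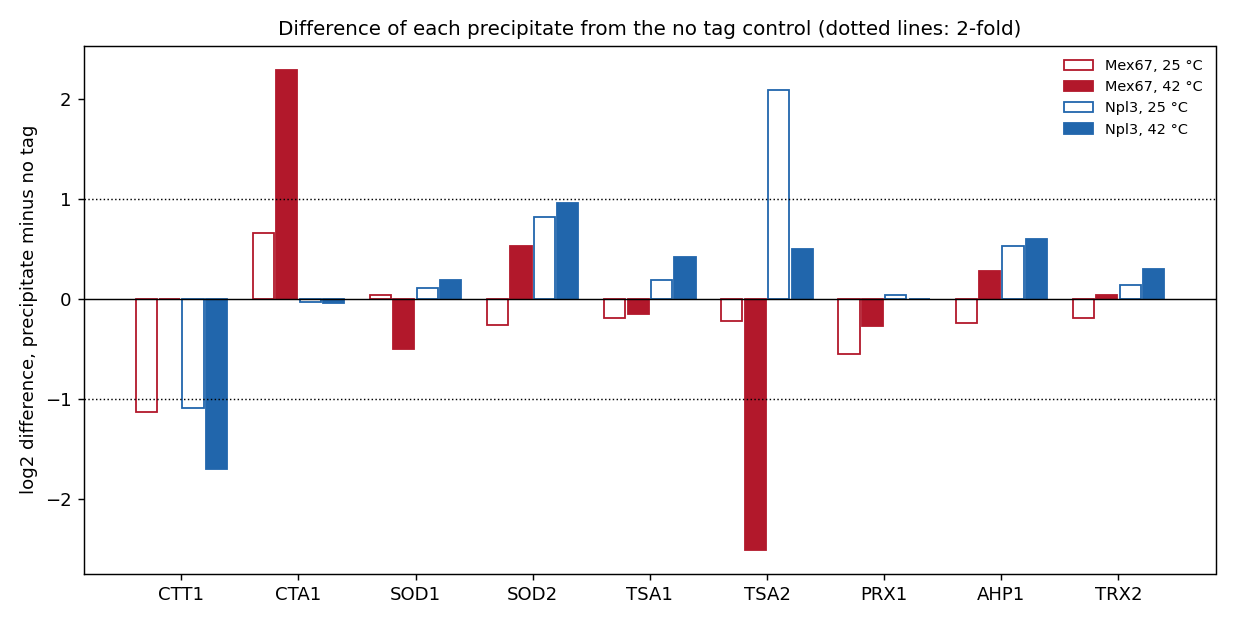
Log2 difference of a precipitate minus the no tag control of the same temperature (vertical axis) for each of the 9 genes (horizontal axis), with open bars for 25 °C, filled bars for 42 °C and dotted lines at 2-fold. CTA1 at 2.29 and TSA2 at -2.51 were the ends in Mex67 at 42 °C, and CTT1 was at -1.09 and -1.70 in Npl3 at 25 °C and 42 °C.

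Compared directly at 42 °C, the Mex67 precipitate was above the Npl3 precipitate in CTA1 by 2.33 and in CTT1 by 1.70 and below it in TSA2 by a difference of -3.01. Over all loci 22.5% were at least 2-fold higher and 20.2% lower. The other 6 genes lay between -0.69 and -0.26. In this comparison Spearman's rho with coding length over 5646 loci was 0.50, and without the trend all 6 turned to positive differences, from 0.24 for SOD2 and PRX1 to 0.97 for TRX2, while CTA1 was at 1.90, CTT1 at 1.22 and TSA2 at -2.11. At 25 °C 0 of 9 were at least 2-fold higher, where 12.1% of all loci were, and TSA2, at -2.31, and SOD2, at -1.07, were lower, where 15.2% were. The CTT1 difference at 25 °C was -0.05, so CTT1 was at nearly the same value in the unheated Mex67 and Npl3 precipitates and below the unheated control in both.

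Coding length moved with the precipitate over all loci. In Npl3 against the control, Spearman's rho with coding length across 5646 loci, which are not independent and share the arrays, was -0.43 at 25 °C and -0.47 at 42 °C. The 7 genes other than the catalases have coding lengths of 315 to 786 bp, while CTT1 has 1689 bp and CTA1 1548 bp. At 42 °C the smoothed trend was 1.06 at the length of TRX2, 0.93 at that of SOD1, 0.73 at that of TSA1 and TSA2, 0.53 at that of SOD2 and -0.40 at that of CTT1. Without it, Npl3 minus control at 42 °C was -1.30 for CTT1, -0.23 for TSA2, 0.43 for SOD2, -0.74 for SOD1 and -0.76 for TRX2. CTT1 thus stayed at least 2-fold lower at 42 °C, and at 25 °C its difference was -0.81 without the trend. The TSA2 difference at 25 °C was 1.50 without the trend.

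**Figure D4:**
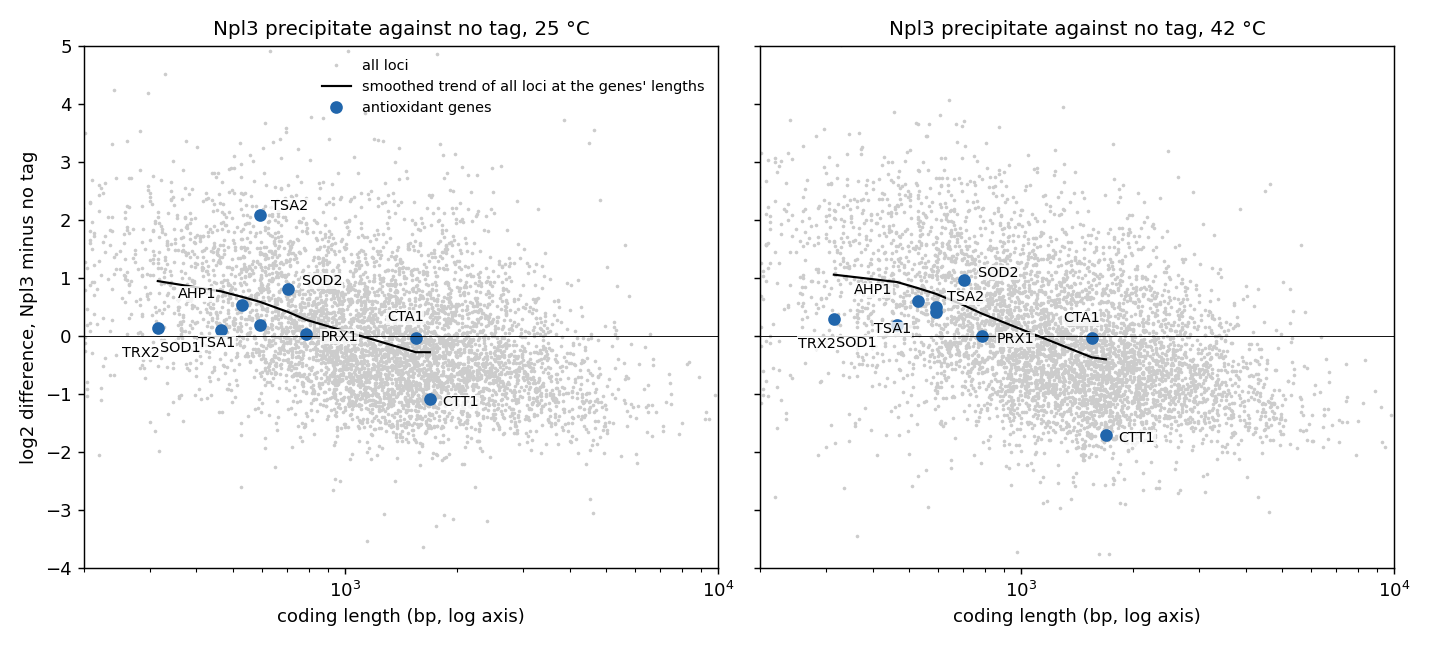
Log2 difference of Npl3 minus no tag (vertical axis) against coding length in bp on a log axis (horizontal axis) at 25 °C and 42 °C, with all loci in grey, their smoothed trend around its mean as a line and the 9 genes as labelled points; 126 and 129 of 5646 loci lie outside the plotted range. TSA2 at 25 °C lay above the line and CTT1 below it at both temperatures.

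Likeness to other loci was measured for the 5 genes spanning at least 2-fold, as the root mean square difference between mean-centred log2 profiles over the 6 arrays, against 5100 loci with a symbol and a probe set of their own. The profile of CTT1 was nearest to DUR3, a urea transporter gene (0.12), PGM2, a phosphoglucomutase gene (0.19), and YEF1, an NAD kinase gene (0.20), where the median over loci was 0.96. CTA1 was nearest to NAT4, a histone acetyltransferase gene (0.18), NAB3, the gene of a nuclear RNA-binding protein (0.23), and JSN1, a Puf family gene (0.24), with a median of 0.98. NAT4 was at 12.39 on the heated Mex67 array, against 10.02 on the unheated one, and between 9.47 and 10.01 on the Npl3 and no tag arrays. TSA2 was nearest to GPG1 (0.31), PAI3, the gene of a proteinase A inhibitor (0.38), and MOH1 (0.54), with a median of 1.42. GPG1 was at 8.22 and 7.54 in Mex67, 11.33 and 10.03 in Npl3 and 10.85 and 7.59 in no tag, at 42 °C and 25 °C in each pair, with the same 3 arrays highest, in the same order, as for TSA2. SOD2 was nearest to CSI1 (0.10), PAN3 (0.11) and ASI2 (0.12), with a median of 0.67, and PRX1 to SPG5 (0.09), STE5 (0.11) and SPG3 (0.13), with a median of 0.63.

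Other antioxidant genes were counted beside all loci. Of 28 other genes of the thioredoxin and glutathione systems, heat in Mex67 put 4 at least 2-fold higher and 3 lower, against 1 and 2 in Npl3 and 3 and 2 in no tag, with median log2 differences of -0.05, -0.23 and 0.00. Of all loci 15.4% were higher and 12.2% lower in Mex67, 2.11% and 1.38% in Npl3 and 6.69% and 2.07% in no tag, so the counts in Mex67 are close to the shares of all loci. MXR1, a methionine sulfoxide reductase gene, was at 12.90 and 11.06 in Mex67, 10.62 and 11.63 in Npl3 and 12.93 and 11.49 in no tag, at 42 °C and 25 °C. Heat thus went with a higher MXR1 value in Mex67, by 1.84, and in no tag, by 1.44, and with a lower one in Npl3, by a difference of -1.01. GPX2, a glutathione peroxidase gene, had log2 heat differences of -1.46 in Mex67, -0.44 in Npl3 and -1.75 in no tag, and GRX1, a glutaredoxin gene, of 0.52, 1.08 and 1.06.

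In Npl3 against the control, 6 of the same 28 genes were higher at each temperature, with 3 lower at 25 °C and 4 lower at 42 °C, near the shares of all loci, of which 18.1% and 18.7% were higher and 15.1% and 19.4% lower. GPX1 at 2.89 and TRX3, the mitochondrial thioredoxin gene, at 2.13 were the highest at 25 °C, and GSH2 at -1.82 and GSH1 at -1.52, the genes of the enzymes of glutathione synthesis, the lowest. The coding lengths are 504 bp for GPX1 and 384 bp for TRX3, and 1476 bp for GSH2 and 2037 bp for GSH1, and the higher pair is shorter than the lower pair. In Mex67 against the control 0 of 28 were higher and 1 lower at 25 °C, and 2 were higher and 3 lower at 42 °C. Of all loci 0.746% were higher and 0.657% lower at 25 °C, and 6.97% and 5.79% at 42 °C. The counts at 42 °C are near these shares.

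Of 17 genes of peroxisomal fatty acid oxidation, the compartment of Cta1, 3 were at least 2-fold higher with heat in Mex67, 0 in Npl3 and 1 in no tag, and 0 were lower in any of them. The medians were 0.73, 0.08 and 0.22, against 0.03, 0.01 and 0.00 for all loci. With 15.4% of all loci higher with heat in Mex67, the count of 3 is near the share of all loci. In Mex67, PXA1, the gene of a subunit of the peroxisomal fatty acid transporter, was at 1.36 and CIT2, the peroxisomal citrate synthase gene, at 1.16, below the 1.88 of CTA1. In Mex67 against the control at 42 °C LPX1, a peroxisomal lipase gene, was at 1.26 and TES1, a thioesterase gene, at 1.18, against 2.29 for CTA1. The other 15 were short of 2-fold, and 6.97% of all loci were at least 2-fold higher and 5.79% lower. POX1, the acyl-CoA oxidase gene, lay between 5.44 and 7.17 on the 6 arrays, lowest on the unheated Mex67 array, whose background floor was 5.12. The 1 gene counted with heat in no tag was POX1, with a difference of 1.26. Its unheated no tag value was 5.92, near the floor of 5.09 on that array.

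Of 14 genes of regulators of the stress responses, 7 were at least 2-fold higher with heat in Mex67, 0 in Npl3 and 1 in no tag, with medians of 0.97, 0.08 and 0.32 and 0 lower. Of all loci 15.4%, 2.11% and 6.69% were higher, with medians of 0.03, 0.01 and 0.00. ADR1, an activator of peroxisomal genes and of CTA1, was at 12.41 and 9.77 in Mex67, 9.97 and 9.31 in Npl3 and 11.27 and 10.81 in no tag, at 42 °C and 25 °C. HSF1, the heat shock factor gene, was at 13.32 and 11.32 in Mex67, 12.58 and 12.58 in Npl3 and 11.60 and 10.46 in no tag. The heated Mex67 array was the highest for both genes. The lists are long genes in part, with 3972 bp for ADR1 and 2502 bp for HSF1, and the rank correlation of the heat difference in Mex67 with coding length was 0.31 over 5646 loci.

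**Figure D5:**
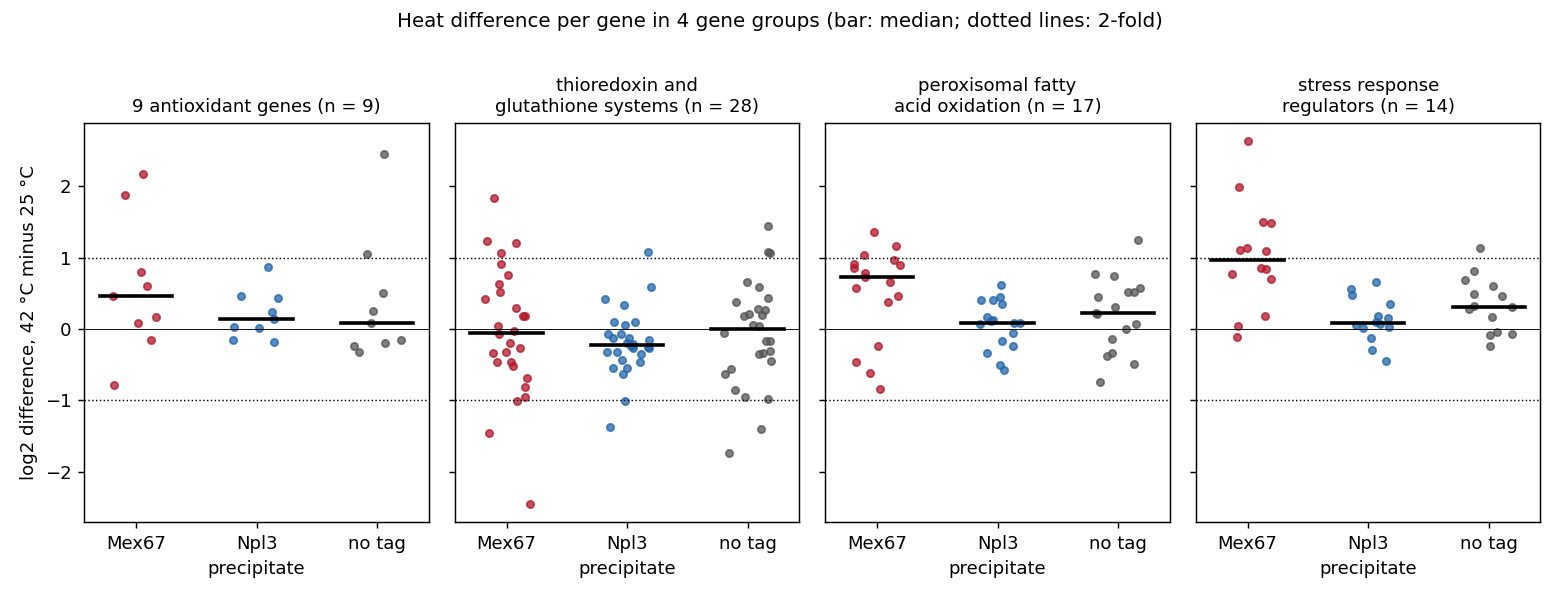
Log2 difference of 42 °C minus 25 °C (vertical axis) of each gene in the Mex67, Npl3 and no tag precipitates (horizontal axis), for the 9 antioxidant genes and 3 other gene groups, with a bar at the median and dotted lines at 2-fold. The regulators had the highest median in Mex67, 0.97, and the thioredoxin and glutathione systems a median of -0.05.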

How the data were processed

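The authors deposited normalized log2 values per probe set and array, made with affy per the submitters' processing notes. The version of affy, the genome build and the methods of background correction and summary are not stated in the sources used here. Column names give the strain number, which was matched to the labels, and the letter S or US. These were taken to mean stressed (42 °C) or unstressed (25 °C), a reading that the labels do not spell out. Of 10928 probe sets, 5716 are for S. cerevisiae, 4999 for S. pombe and 213 are controls. Probe sets were averaged per locus (47 of 5667 loci have several), and 5646 loci were named, and their lengths taken, from the RefSeq gene table of assembly R64. Of these lengths 97.0% are multiples of 3, so they are called coding lengths.

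Comparisons are differences of log2 values between 2 arrays, or differences of 2 such differences. A locus was tested when above the floor, the 95th percentile of S. pombe probe sets, on at least 1 array of the comparison, and counted at 2-fold. The number of arrays limits the precision. The length trend is a lowess fit (statsmodels 0.14.6, fraction 0.3, centred on its mean). The counting was tested on simulated data with known changes put in and independent noise of the size seen in the S. pombe probe sets. These data held no strain, labelling or length differences, so the test covers the counting rule and not the results above. The members and lists were chosen with earlier results of these data known. Named beyond the 9 members are the 3 nearest profiles of members spanning at least 2-fold, and listed genes among the 2 highest and 2 lowest in a comparison. POX1, STE2, STE3 and URA3, beside results they touch, were named after their values were seen. Alternatives were other scalings, removal of the length trend, a higher floor and a 1.5-fold threshold. TRP1 of the strain marker list was not analysed here, leaving 13 genes.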

Additional observations from a re-analysis of the deposited data

Results flagged for a closer look

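With 1 array per group no value could be compared with others of its group. Heat differences of opposite sign in different precipitates drew attention to 3 of the 9 genes, and in none of them was the contrast tested. SOD2 was higher with heat in Mex67 (0.46 on the log2 scale) and lower in Npl3 (-0.18) and in no tag (-0.32), so that Mex67 exceeded Npl3 by 0.65 and no tag by 0.79. TSA1 had heat differences of -0.16 in Mex67, 0.03 in Npl3 and -0.20 in no tag, contrasts of -0.19 for Mex67 minus Npl3 and 0.23 for Npl3 minus no tag. TRX2 had 0.08, 0.01 and -0.15, contrasts of 0.23 for Mex67 minus no tag and 0.16 for Npl3 minus no tag. In the contrast of the Mex67 and no tag heat differences the S. pombe background had an SD of 0.316. In that of Npl3 and no tag it was 0.317. The TSA1 contrast of Npl3 with no tag and both TRX2 contrasts were smaller than these SDs. The S. pombe probe sets are dim, so the SDs set no bound on the spread between precipitations for any of the 3 genes. The heat difference of Mex67, which enters both SOD2 contrasts, crosses the labelling split. Without the trend with coding length the opposite signs were gone for TSA1, at 0.30, 0.10 and 0.02 in Mex67, Npl3 and no tag, and for TRX2, at 0.50, 0.09 and 0.02, while SOD2 was at 0.82, -0.14 and -0.15.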

How the results depend on the processing

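No paired analysis was possible because each group holds 1 array, and for the same reason no array could be left out. The 99 differences (9 genes in 11 comparisons) kept their side of the 2-fold threshold when arrays were centred on S. pombe probe sets, with shifts of at most 0.06, and when loci were quantile-normalized, with shifts of at most 0.36 (TSA2 with heat in Mex67, which turned from 0.17 to -0.18), and the floor at each array's median changed no count of the 9 genes. Removal of the length trend shifted differences by up to 1.22 (TRX2, Mex67 against Npl3 at 42 °C) and turned the sign of 30 of the 99, all short of 2-fold. Without that trend, heat in Mex67 counted 4 of 9 genes in place of 2, since AHP1 (1.09) and PRX1 (1.07) passed 2-fold. Of all loci 24.5% then differed at least 2-fold. Heat in no tag then counted 1 in place of 2, since CTT1 was at 0.95, Npl3 against no tag at 25 °C 1 in place of 2, since CTT1 was at -0.81, and Mex67 against Npl3 at 25 °C 1 in place of 2, since SOD2 was at -0.72. At a 1.5-fold threshold, heat counted 5 genes in place of 2 in Mex67 and 1 in place of 0 in Npl3. Of all loci 51.2% and 12.4% passed it. Against no tag at 25 °C, Mex67 counted 2 in place of 1 and Npl3 3 in place of 2. The shares of all loci were 10.4% and 58.3%. At 42 °C, Npl3 against no tag counted 3 in place of 1, where 61.5% of all loci passed. Mex67 against Npl3 counted 5 in place of 2 at 25 °C and 4 in place of 3 at 42 °C. There 53.0% and 64.7% of all loci passed. Heat beyond the control counted 4 in place of 3 in Mex67 and 2 in place of 1 in Npl3. Those shares were 32.2% and 18.7%. Heat in no tag and Mex67 against no tag at 42 °C stayed at 2, with 24.7% and 34.0% of all loci. Quantile normalization moved the balance of higher and lower loci in several comparisons. Among them were heat in Mex67, heat in no tag and heat in Npl3 beyond the control, as given above. The counts of the 9 genes did not change.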

Other observations

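The 9 genes were also compared among themselves. TSA1 and TRX2, a peroxiredoxin gene and a thioredoxin gene, were the most alike pair. Their root mean square difference between mean-centred log2 profiles over the 6 arrays was 0.10. SOD1 and TSA1 (0.20) and SOD2 and AHP1 (0.21) followed. These pairs have narrow spans, which by itself keeps the measure small. The least alike pairs were CTA1 and TSA2 (1.93) and CTT1 and TSA2 (1.66). The catalase pair CTT1 and CTA1 differed by 0.88, and the peroxiredoxin pair TSA1 and TSA2 by 1.21, while SOD1 and SOD2 differed by 0.47.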
